A study of Mus musculus with 16 samples.

Results

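The 3′ UTR is the stretch of an mRNA past its stop codon, where many signals for stability, translation and cleavage lie. The intervals described here were 3′ UTRs of middle length that hold few uridines: 259 of the 4664 intervals over 200 and under 3000 bases with a mean CPM (reads scaled to library size) of at least 5, from 21177 genes. Each gene entered with its interval of highest mean CPM, the longer one in a tie, and a member had at most 22% T among its bases (T in the table stands for U in the RNA). The choice used the sequence, the length and the mean CPM, and none of the T-to-C rates.

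The rates come from SLAM-seq. Cells are fed 4-thiouridine (4sU), a uridine analogue that enters new RNA in place of U, and chemical treatment later makes these positions read as C. Label can sit only at a U, so the number of Us in a transcript sets how many places can carry it. YBX1 is a cold-shock domain protein that binds mRNA in the cytoplasm and is known for effects on mRNA stability and translation, also at sites of 5-methylcytosine.

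The study followed leukemia cells of C57BL/6 mice, labelled as bone marrow, of the genotypes WT and YBX1-/-. Cells of both genotypes were given 50 µM 4sU for 24 h, washed and chased with 10 mM uridine. RNA was extracted with TRIzol after 0, 0.5, 1, 3, 6, 12, 18 and 24 h in uridine, and polyA libraries were made with a NEBNext kit. There was 1 library for each genotype and time point, 16 in all, with no replicate and no unlabelled library. The oncogene that drives the leukemia, the number of animals and the position of the deletion are not given in the sources used here. The depth of each library is also unknown, so no interval is given for a rate.

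Of the myeloid markers, 12 of 13 had at least 5 CPM (all except Kit), with a sum of 8624.5 CPM, most of it from Lyz2. None of 8 erythroid and none of 8 stromal markers reached 5 CPM, against 1 of 8 for T and NK cells (Nkg7), 1 of 6 for B cells (Cd79b) and 2 of 5 for megakaryocytes (Pf4 and Ppbp). Fewer cells of a type and less RNA per cell cannot be told apart in such bulk RNA. The YBX1-/- 0 h library stood apart over the members: 19 of 259 had a rate of 0 there, against 1 to 7 in the other libraries of 0 to 1 h. Its log2 rates had an SD of 2.19 across members, against 1.23 to 1.66 in those 5 libraries. Results that rest on it are also given without it.

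A few stretches of member intervals are shown here. The share of the interval that is also coding in another isoform was 51.3% in Ftl1 and 26.0% in Tyrobp. It was 0% in Fcgr3, 13.9% in Rpl41, 96.7% in F10 and 87.1% in Rpl14. A window can therefore be coding sequence in another isoform. The first set holds the ends of 6 of the members with the highest CPM, with the polyadenylation signal AATAAA, or its variant ATTAAA in F10, in capitals. The signal began 18 to 34 bases before the end of these intervals, and the window of 30 bases held 6 to 10 Ts. The sequences are from GENCODE transcripts of the mouse build GRCm38, 5′ to 3′ along the RNA.
Ftl1 (chr7:45457948-45457977, minus strand): ggaccaagtaaaAATAAAgctttttgagac
Tyrobp (chr7:30417551-30417580, plus strand): tttctgtccccaAATAAAagacagagcaaa
Fcgr3 (chr1:171051185-171051214, minus strand): ttgacctcctatAATAAAgcaaaaaaaatc
Rpl41 (chr10:128548130-128548159, minus strand): tagctcgtgtacAATAAAccctcttgcagt
F10 (chr8:13055866-13055895, plus strand): caggtccgcccaATTAAAgcagtccttctc
Rpl14 (chr9:120574396-120574425, plus strand): gctacacagaatAATAAAggttctttttga

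The second set shows CATC, the core of a motif known for YBX1 binding, in 5 of these 6 members, with 1 match per window in capitals. The Fcgr3 window also holds matches in lower case. These windows held 4 to 9 Ts in 30 bases.
Ftl1 (chr7:45458220-45458249, minus strand): aggaggtgaaactCATCaagaagatgggca
Tyrobp (chr7:30417411-30417440, plus strand): cccactctatgccCATCagcggcctgatgc
Fcgr3 (chr1:171051638-171051667, minus strand): cacccCATCcatcgtatggcaaaacatcgg
Rpl41 (chr10:128548287-128548316, minus strand): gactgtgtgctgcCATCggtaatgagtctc
F10 (chr8:13055407-13055436, plus strand): ggctgaagactccCATCacgttccggatga

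The members were short and rich in C and G. Their T share had a median of 20.6% (range 14.2% to 21.99%), against 29.5% in the other 4405 intervals of middle length and 37.2% in the 259 U-richest. The median member had 514 bases and 103 Ts, against 1118 bases and 327 Ts in the others. C made up a median of 28.2% of the bases against 21.7%, G 27.1% against 22.2%, and A 23.9% against 26.2%. CpG pairs numbered 1.83 per 100 bases against 1.09. Mean CPM had a median of 12.5 against 13.8, and the mean coverage per T was 35.9 against 23.6.

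Larger shares of these 3′ UTRs than of the rest overlapped other annotated features. All but 2 of the 259 lay wholly in a 3′ UTR of their own gene. The exceptions were Lyl1 and 1 gene with no symbol. In 103 members (39.8%) part of the interval was also coding sequence in another isoform, against 20.6% of the other intervals, and in 35 (13.5%) at least 50% of it was, against 1.95%. F10 was 96.7% and Rpl14 87.1% coding in another isoform. Exons of another protein-coding gene ran through 21 members (8.11%) on the same strand, against 2.45%, and through 58 (22.4%) on the opposite strand, against 11.5%. Such cases include Coro1b, which shared 98.4% of its interval with Ptprcap, so that reads of the pair cannot be told apart. The members also overlapped each other: 11 of them formed 7 pairs with shared bases. Chromosome 7 held 38 members (14.7% of them, against 6.49% of the other intervals), chromosome 8 held 24 (9.27% against 5.61%) and chromosome 17 held 21 (8.11% against 4.84%).

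Motifs were counted on the RNA strand only, in the 257 members and 4398 other intervals with a transcript sequence. The limit on T itself lowers the number of matches to motifs rich in T, so these shares describe the members and are no finding about them. The AU-rich pentamer ATTTA, the core of AU-rich elements, was in 9.52% of members and 40.1% of others at up to 500 bases, and in 55.9% and 88.9% above 1000 bases. The Pumilio-type motif TGTANATA, in which N is any base, was in 5.84% of members and 24.1% of others over all lengths. A run of TTTTT was in 15.9% against 58.3% at up to 500 bases and in 59.3% against 95.3% above 1000. The m6A-type motif GGACT stood at 1.41 per 1000 bases in members and 1.003 in others, and CATC at 4.07 and 3.46. At up to 500 bases GGACT was in 40.5% of members against 33.4% of others, and CATC in 72.2% against 70.3%. AATAAA or ATTAAA was in the last 40 bases of 67.7% of members and 77.9% of others. The motifs can overlap each other, and a match is only a match of letters. The longest stretch without a T had a median of 25 bases in members and 21 in others. It reached 208 bases in Cyb5r3, an enzyme that passes electrons to cytochrome b5, a member singled out for this value.

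U-poor 3′ UTRs carried less label than other 3′ UTRs of middle length in every library. From 0 to 24 h the median rates of the members in WT were 34.8%, 36.8%, 31.5%, 15.1%, 7.5%, 1.34%, 0.861% and 0.583%. The other intervals had 42.96%, 50%, 44.2%, 20.5%, 10.2%, 2.16%, 1.099% and 0.888% at these times. Members therefore sat below the others at each of the 8 WT time points. In YBX1-/- the members had 25%, 27.6%, 23.1%, 13.7%, 4.396%, 1.205%, 0.893% and 0.562%, and the other intervals 33.3%, 37.1%, 29.99%, 18.4%, 4.55%, 1.65%, 1.26% and 0.746%. The ratio of the medians ran from 0.618 to 0.967 over the 16 libraries. Its mean was -0.43 on the log2 scale (SD 0.137, n = 16 libraries), and -0.43 without the YBX1-/- 0 h library. Between 77.2% and 94.2% of the members were below the median of the others in the libraries of 0 to 1 h. The same 259 and 4405 intervals enter every library, so the libraries do not repeat the choice of intervals, and no p-value is given.

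**Figure D1:**
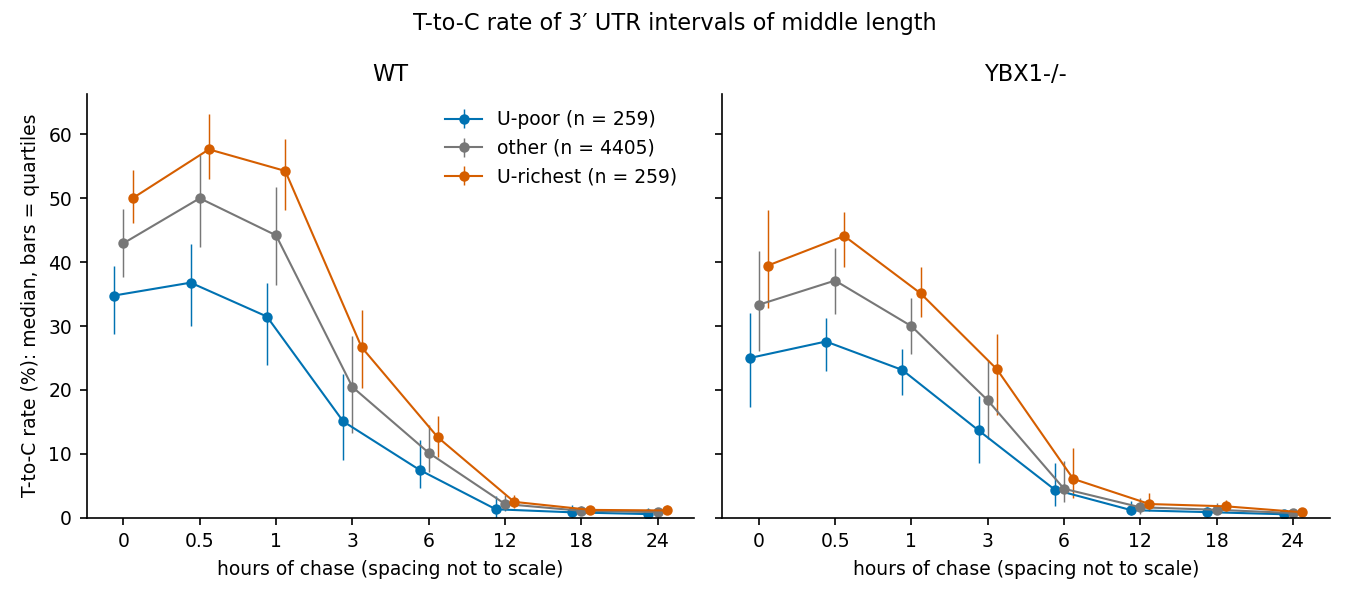
Median T-to-C rate (y axis, percent, bars from the lower to the upper quartile over intervals) at 8 times of the chase (x axis, hours, spacing not to scale) for U-poor intervals, the other intervals of middle length and the 259 U-richest, in WT (left) and YBX1-/- (right). In each library the U-poor median is the lowest of the 3, 34.8% against 42.96% for the other intervals at 0 h in WT.

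The rate followed the T share over the whole range, with no step at 22%. The mean of the 3 WT medians of 0 to 1 h was 30.6% in the 30 intervals with up to 18% T and 32.5% in the 58 with 18 to 20%. It was 35.3% in the 68 with 20 to 21% and 36.8% in the 103 with 21 to 22%. Beyond the limit it went on to 38.5% at 22 to 25% T, 43.8% at 25 to 30%, 49.2% at 30 to 35% and 53.2% above 35%. In YBX1-/- the same series ran from 21.3% to 38.9%. Spearman's rho between T share and rate over 4664 intervals was 0.307 to 0.535 in the 6 libraries of 0 to 1 h and 0.0978 to 0.283 in the 10 later ones. Within the members alone it was 0.145 to 0.275 at 0 to 1 h. C share, G share and T share depend on each other in an interval, and rho with the C share was -0.455 to -0.273 in the same libraries. The intervals also share library, depth and gene structure.

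**Figure D2:**
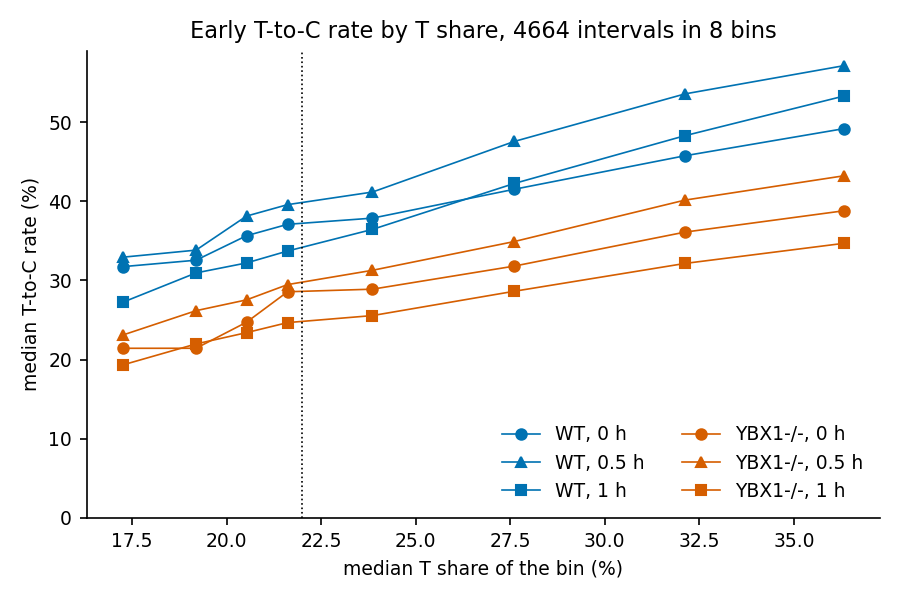
Median T-to-C rate (y axis, percent) against the median T share (x axis, percent) of 8 bins of intervals, with 1 line for each library of 0, 0.5 and 1 h in WT and YBX1-/-. The dotted line marks 22% T. The rate is higher in bins with more T on both sides of it, from 30.6% to 53.2% as the mean of the 3 WT lines.

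Scaled by T share, the difference turned its sign in 14 of 16 libraries. The members' median T share was 0.699 times that of the others, and the ratio of median rates at 0 to 1 h was 0.713 to 0.8097. With each rate divided by the interval's T share, the ratio of medians was 1.04 to 1.19 at 0 to 1 h. Later it ran from 0.866 to 1.33, and it was below 1 in WT at 12 h (0.866) and 24 h (0.941). The mean over 16 libraries was 0.12 on the log2 scale, against -0.43 for the rates as deposited. With -ln(1 - rate), which treats the rate as a share of reads with at least 1 conversion, the ratio was 0.936 to 1.11 at 0 to 1 h and the mean 0.07. The sources used here do not say if the deposited rate counts reads or T positions.

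The overlaps and the length of the members moved this ratio less. In the 102 members with neither coding overlap nor another gene's exons, against the 3000 other intervals of this kind, the mean log2 ratio was -0.36. Among intervals of up to 500 bases (127 members, 791 others) it was -0.51. Among members of at least 20 CPM (68) it was -0.26.

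Shorter members kept a higher rate at 3 and 6 h. Medians in WT at 3 h were 18.1% at up to 500 bases, 15.7% at 500 to 1000 and 11.2% above 1000, while the medians at 0 h were 34.4%, 35.6% and 34.1%. The other intervals had the same order at 3 h, with 25.4%, 21.1% and 18.8%. At 12 to 24 h many members were listed at 0: 35.5%, 33.6% and 40.2% of members in WT, against 12.5%, 16.8% and 25.99% of the others. In YBX1-/- the shares were 20.1%, 25.1% and 11.97% of members and 19.2%, 18.6% and 9.97% of the others. An exact 0 may mean no converted read or no read.

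Relative to its own rate at 0 to 1 h, the median label left at 3, 6 and 18 h was higher in members than in others, and at 12 and 24 h lower, in both genotypes. The median member had 49.6%, 24.3%, 3.98%, 2.64% and 1.76% of it in WT from 3 to 24 h, against 45.9%, 22.6%, 4.82%, 2.41% and 1.94% in the others. In YBX1-/- these were 58.02%, 19.8%, 4.76%, 3.97% and 2.24%, against 55.2%, 14.3%, 5.06%, 3.89% and 2.26%. With -ln(1 - rate) in place of the rate, members were higher at 12 h in YBX1-/- (4.19% against 4.13%) and at 24 h in both genotypes. The widest gap was at 6 h in YBX1-/-, where the quartiles were 8.42% and 40.1% in members and 7.81% and 27.5% in the others. Members were shorter than the others (median 514 against 1118 bases), and shorter intervals had higher rates at 3 and 6 h. At up to 500 bases the WT medians at 0 and 3 h were 34.4% and 18.1% in members, and 43.3% and 25.4% in others. The gaps between members and others are thus mixed with length, and the part of T share in them was not tested.

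Straight lines through log2(rate + 0.1 percentage points) gave the loss per gene. The tests ran on the 7411 genes with a rate above 0 in at least 12 of 16 libraries, which include 239 of the 259 members. Label fell in 220 of 239 members in WT. In YBX1-/- it fell in 225 of 239 (limma for each, Benjamini-Hochberg adjusted p under 0.05 over all tested genes). Over all tested genes 95.2% fell in WT and 91.5% in YBX1-/-, so the members' shares are near the background. Without the 0 h time point label fell in 220 members in YBX1-/-. In log2 per h, the median slope in WT was -0.27 for members and -0.27 for all tested genes. In YBX1-/- it was -0.24 and -0.25. As label half-lives, minus 1 divided by the slope, these are 3.66 h and 4.12 h for members, and 3.72 h and 4.06 h for all. Over 0 to 6 h alone the median slopes were -0.37 in WT and -0.39 in YBX1-/- for members, and -0.39 and -0.47 for all. The slopes, and which genotype had the steeper one, thus depend on the times fitted. The half-lives of single genes given below also rest on lines over 0 to 24 h. A fall of the rate can come from decay of labelled RNA or from new unlabelled RNA, which cannot be told apart here.

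The 5 members with the highest CPM were Ftl1, Tyrobp, Ubxn11, Ctsz and Fcgr3. Ftl1, the ferritin light chain that stores iron, had 3431 CPM (chr7:45457945-45458283, minus strand, 339 bases, 19.8% T). Ftl1 rates in WT were 33.3%, 35.9%, 33.3%, 22%, 17.5%, 6.12%, 2.25% and 0.916% from 0 to 24 h. In YBX1-/- they were 26.5%, 27.2%, 23.5%, 20.1%, 11.6%, 3.29%, 1.41% and 0.595%, lower at each of the 8 times. Its label half-life was 4.61 h in WT and 4.34 h in YBX1-/-. Ferritin genes have near-identical processed copies elsewhere in the genome, so its reads are uncertain to that extent.

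Tyrobp, the signalling adaptor DAP12 of myeloid and NK cell receptors, had 591 CPM (chr7:30417344-30417585, plus strand). Tyrobp rates were 33.2%, 36.8%, 34.4%, 25.3%, 21.5%, 7.88%, 2.41% and 1.37% in WT. In YBX1-/- they were 21.8%, 22.1%, 19.8%, 18.2%, 12.7%, 5.8%, 3.41% and 0.902%. YBX1-/- was lower at 7 of 8 times, and the half-lives were 4.96 h and 5.65 h. Ctsz, the lysosomal protease cathepsin Z, had 412 CPM (chr2:174427493-174427871, minus strand) and rates of 36.6%, 39.9%, 36.9%, 20.5%, 12.1%, 2.48%, 1.104% and 0.89% in WT. Its YBX1-/- rates were 30.8%, 32.5%, 27.6%, 21.6%, 8.22%, 2.48%, 1.94% and 0.878%. Here the libraries of the genotypes crossed, with YBX1-/- lower at 5 of 8 times. Fcgr3, a low-affinity receptor for IgG, had 263 CPM (chr1:171051175-171051667, minus strand) and 39.05%, 42.8%, 38.8%, 22.8%, 10.7%, 2.01%, 0.8302% and 0.605% in WT. In YBX1-/- Fcgr3 had 29.3%, 34.2%, 27.7%, 20.2%, 7.25%, 1.63%, 1.35% and 0.746%, lower at 6 of 8 times. The decay difference of none of these 4 genes passed the test (adjusted p 0.55 for Ftl1, 0.951 for Tyrobp, 0.931 for Ctsz and 0.818 for Fcgr3).

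Csf1r, F10 and Spi1 were also among the members. Csf1r, the receptor for the growth factor CSF1, had 113 CPM and a half-life of 3.77 h in WT and 4.86 h in YBX1-/-. Its interval overlapped exons of Hmgxb3 on the opposite strand over 52.3% of its length. F10, which encodes coagulation factor X, had 115 CPM and half-lives of 4.24 h and 4.36 h. Spi1, the transcription factor PU.1, had 40.04 CPM and half-lives of 4.18 h and 4.23 h. Label fell in both genotypes in these 3 genes (adjusted p at most 0.00154).

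Long-lived label was seen in Cd74, Cenpx and Rpl41. Cd74, the invariant chain of MHC class II, had 39.4%, 38.3%, 35.6%, 32.9%, 30.7%, 18.01%, 11.7% and 8.18% in WT and half-lives of 10.5 h in WT and 9.26 h in YBX1-/-. The YBX1-/- rates of Cd74 were 38.1%, 44.1%, 31.1%, 36.9%, 32.4%, 14.9%, 11.7% and 6.45%, above and below WT in turn. Cenpx, a DNA-binding protein of the centromere and of DNA repair, had 43.9%, 46.7%, 41.6%, 32.3%, 31.5%, 14.2%, 10.7% and 11.6% in WT. The same interval in YBX1-/- had 36.8%, 32.9%, 31.3%, 33%, 23.5%, 16.6%, 13.01% and 13.1%, with half-lives of 10.6 h and 15.02 h. Both thus kept over 5% label to the end of the chase.

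Of the ribosomal protein list 3 of the 19 genes with an interval of middle length were members, 1.16% of members against 0.407% of all intervals of middle length. They were Rpl41, Rpl14 and Rps19bp1, which that list holds for its name and which encodes a binding partner and no ribosomal protein. Rpl41 (129 CPM, chr10:128548114-128548386, minus strand) had 43.8%, 44.7%, 46.5%, 38.1%, 39.3%, 20.4%, 12.1% and 8.46% in WT. In YBX1-/- its rates were 26.2%, 28.4%, 26.2%, 26.2%, 22%, 12.2%, 7.19% and 3.83%, lower at all 8 times. Rpl14 (108 CPM, chr9:120574095-120574435, plus strand) had 15.2% T, among the 4 lowest shares. Rpl14 rates were 35.05%, 33.1%, 29.02%, 26.2%, 19.1%, 9.57%, 2.68% and 1.502% in WT. In YBX1-/- they were 21.005%, 19.99%, 18.5%, 18.4%, 14.8%, 6.13%, 2.23% and 0.786%, again lower at all 8 times. Half-lives were 9.55 h and 8.53 h for Rpl41 and 5.27 h and 5.299 h for Rpl14. Ribosomal protein genes have many processed pseudogenes, which makes their counts uncertain.

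**Figure D3:**
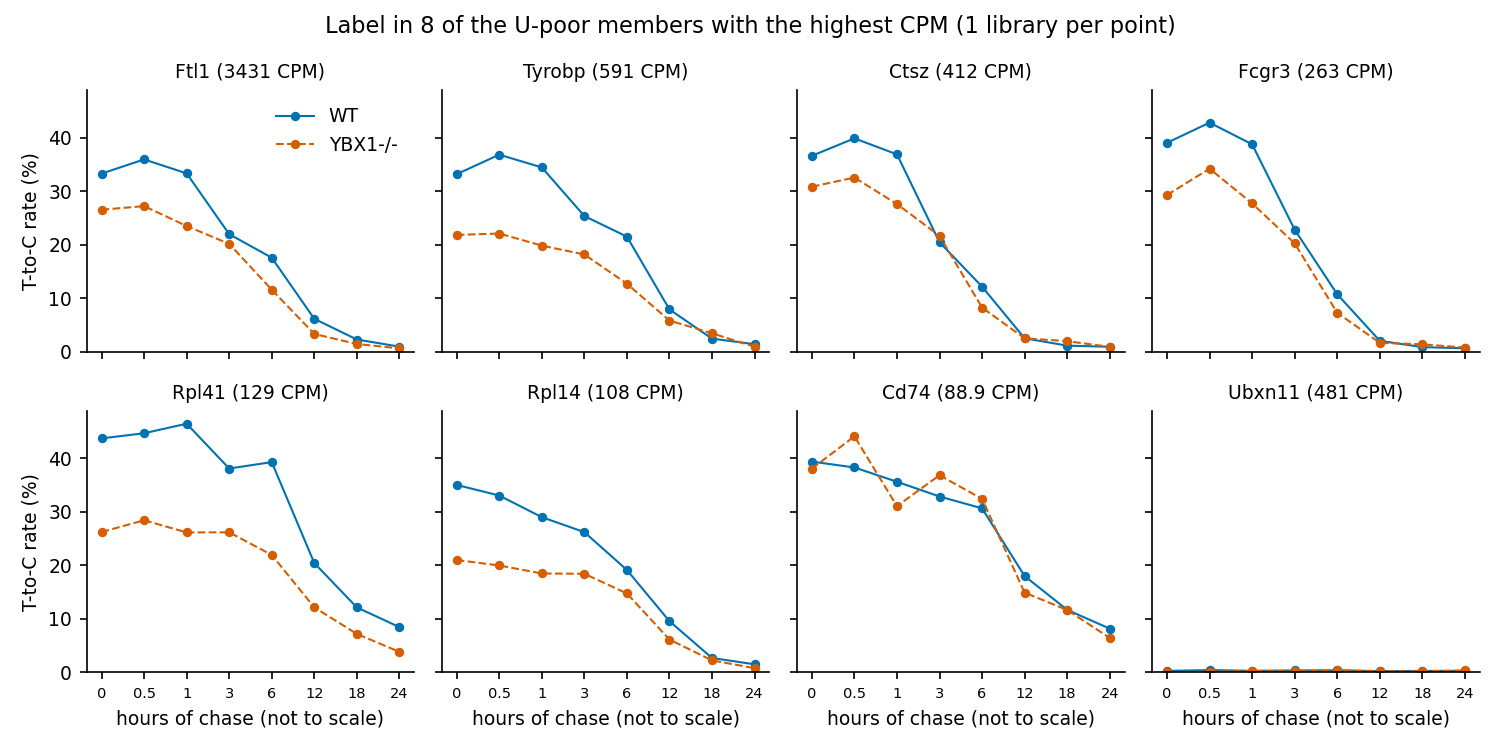
T-to-C rate (y axis, percent) over the chase (x axis, hours, spacing not to scale) in 8 of the 12 U-poor members with the highest CPM, WT in solid and YBX1-/- in dashed lines, 1 library per point. Rpl41 and Cd74 stay above 10% until 18 h in WT, while Ubxn11 lies at or below 0.42% in all 16 libraries.

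The lowest T shares belonged to Bin2 (14.2%), Nupr1 (14.8%), Rpl14 (15.2%) and Eefsec (15.99%). Bin2, a membrane-bending BAR domain protein of blood cells, had 27.3%, 29.96%, 29%, 10.1%, 6.56%, 4.35%, 2.83% and 4.88% in WT. In YBX1-/- it had 20.5%, 22.9%, 17.4%, 11.2%, 6.05%, 2.82%, 2.67% and 2.803%. Its mean over the 6 libraries of 0 to 1 h was 24.5%, below the median of 30.05% over all members, and its longest stretch without T was 69 bases. Nupr1, a stress-induced chromatin protein, had a mean of 29.6% at 0 to 1 h. Eefsec, the elongation factor for selenocysteine, had 25.7% and was listed at 0 in WT from 12 h on.

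Steep loss in WT was seen in Tmem234, Gde1, Cyth4 and Atp13a2 among members with a rate above 0 in all 8 WT libraries. Their half-lives were 2.95 h, 3.38 h, 3.4 h and 3.45 h. Gde1 is a glycerophosphodiester phosphodiesterase, Cyth4 an exchange factor for Arf GTPases, and Atp13a2 a lysosomal transporter of polyamines. Tmem234 had 36.2%, 40.3%, 38.8%, 26.8%, 11.7%, 1.14%, 0.515% and 0.102% in WT. It started near the median of the members and ended at the lowest value of these 4 genes at 24 h.

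Around the limit of 22% T, Snx22, Narfl and Cdpf1 were the last inside (21.974%, 21.985% and 21.991%) and Nagpa, Galnt6 and Rpgrip1 the first outside (22.004%, 22.013% and 22.015%). WT rates at 0 h were 2.91%, 22.4% and 38.5% inside, and 40.4%, 36.7% and 0.165% outside. Intervals with almost no label lay on both sides.

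Some members carried almost no label from the start. In 18 of 259 the mean rate over the 6 libraries of 0 to 1 h was under 10%, a limit set after the values were seen, and in these 18 the median was 1.08% (range 0.232% to 7.62%). Without the YBX1-/- 0 h library the number was also 18. All 18 overlapped exons of a protein-coding gene on the opposite strand. Of the 45 members with at least 20% of their length under such exons, 17 (37.8%) had little label, against 1 of 13 with less overlap and 0 of 201 with none. Among the other intervals of middle length, the numbers were 63 of 341 (18.5%), 12 of 165 (7.27%) and 5 of 3899 (0.128%).

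Ubxn11, a UBX domain protein, was the third most abundant member at 481 CPM (chr4:134126758-134127593, plus strand). Ubxn11 rates were 0.273%, 0.4202%, 0.289%, 0.359%, 0.376%, 0.227%, 0.265% and 0.2805% in WT. In YBX1-/- they were 0%, 0.145%, 0.265%, 0.174%, 0.374%, 0.204%, 0.188% and 0.345%, and no fall passed the test in either genotype (limma, adjusted p 0.695 and 0.185). The gene on the other strand, Sh3bgrl3, covered 22.5% of this interval, had 563 CPM in its own interval and a mean rate of 35.03% at 0 to 1 h.

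Slc26a10 and B4galnt1 were both members and shared 715 bases on opposite strands. B4galnt1, the synthase of the gangliosides GM2 and GD2 (chr10:127171616-127172330, plus strand), had 36.7%, 34.7%, 33.8%, 27.6%, 11.1%, 2.24%, 1.85% and 1.79% in WT. Slc26a10, named as a solute carrier (chr10:127171511-127172537, minus strand), had 0.851%, 1.27%, 0.8403%, 2.06%, 1.83%, 0.746%, 0.309% and 0.288% in the same libraries. The mean at 0 to 1 h was 31.1% on one strand and 0.8297% on the other. Mapk8ip3, a scaffold of JNK signalling, and Mrps34, a protein of the mitochondrial ribosome, formed a like pair over 678 bases. Their means at 0 to 1 h were 0.823% and 29.4%.

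The neighbours of all 18 carried label. There were 19 such genes with an interval of their own, and their mean rate at 0 to 1 h was 26.4% to 49.1% (median 34.7%). It was above that of the member in 19 of 19, which follows largely from the choice of members under 10%. Of the other intervals of middle length 80 of 4405 (1.82%) were under 10%. Snx22 (48.8 CPM) had 1.41% to 6.24% in the 16 libraries and lies across from Ppib, a peptidyl-prolyl isomerase of the ER, with 33.1%. Jmjd8 (81.3 CPM) had 0.2604% to 13.1% and lies across from the ubiquitin ligase Stub1, with 26.4%. Of the 18, 9 were tested, and label fell in 0 of them in either genotype (limma, smallest adjusted p 0.0794). At unadjusted p under 0.05 it fell in 0 of the 9 as well. Over all tested genes 95.2% fell in WT and 91.5% in YBX1-/-. The 18 were chosen for low rates at 0 to 1 h, where the fitted lines begin, so a fall could hardly be found in them. The sources used here do not say if the counting used the strand of reads, so reads of the opposite genes cannot be told apart, and their part in these rates was not tested.

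**Figure D4:**
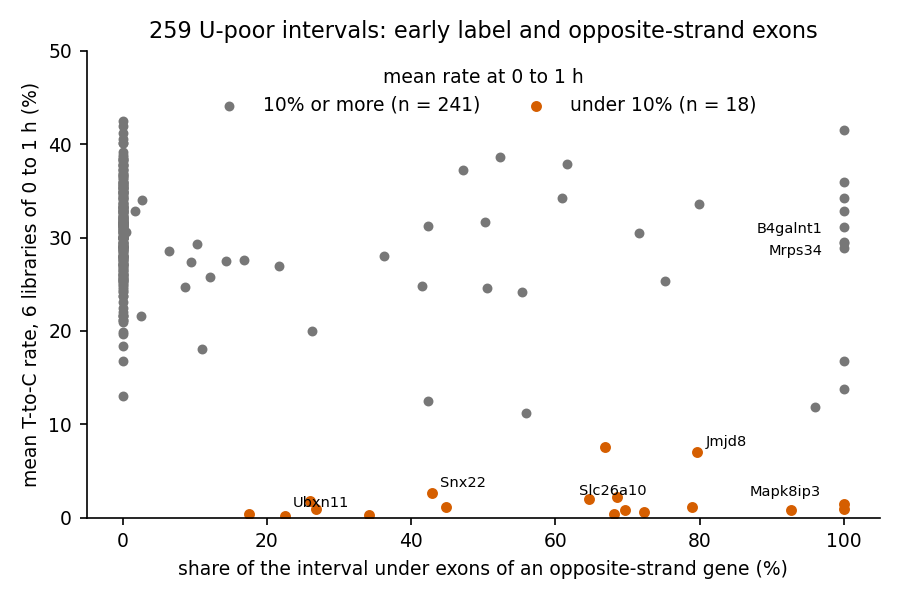
Mean T-to-C rate over the 6 libraries of 0 to 1 h (y axis, percent) against the share of the interval under exons of a protein-coding gene on the opposite strand (x axis, percent), 1 point per U-poor member, with the 18 members under 10% in orange. None of the 201 members with no such overlap lies under 10%, and the lowest of them is at 13.1%.

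YBX1-/- cells carried less label than WT in the typical member early in the chase. The median of members was lower in YBX1-/- at 7 of 8 times, with 18 h as the exception. The mean log2 difference was -0.30 (SD 0.273, n = 8 time points) in members, -0.39 (SD 0.386) in the other intervals and -0.35 (SD 0.381) over all tested genes. Without the 0 h time point it was -0.27 in members, -0.39 in the other intervals and -0.35 over all tested genes. At 0.5 h 223 of 259 members (86.1%) were lower, against 87.97% of the other intervals and 85.5% of all tested genes. At 1 h 211 members (81.5%) were lower, against 89.6% and 87.5%. The early drop was thus general and not particular to the members. At 24 h 110 (42.5%) were lower and 130 (50.2%) higher, against 52.96% lower and 42.5% higher in the other intervals. At that time 40.2% of members and 25.99% of the others were listed at 0 in WT. In YBX1-/- 11.97% and 9.97% were. Any YBX1-/- rate above 0 counts as higher than a WT 0, so these counts depend on the zeros. The member medians at 24 h were 0.583% in WT and 0.562% in YBX1-/-.

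With the median of tested genes taken from each library, few members differed between genotypes. The change of the difference over time (decay difference, YBX1-/- minus WT, log2 per h) passed for 1 of 239 members in limma, where 8 of 7411 genes (0.108%) passed. At unadjusted p under 0.05 there were 31 members (13.0% of 239), 19 slower and 12 faster in YBX1-/-, against 12.5% of all tested genes. The median decay difference was 0.01 in members and 0.00 in all. The level difference over all times passed for 0 of 239 members and 0.0% of all tested genes. At unadjusted p under 0.05 it held for 17 members, 9 higher and 8 lower, where the share of all tested genes was 5.6%. Its median was 0.10 log2 in members and 0.01 in all. Without the YBX1-/- 0 h library no member passed either test, and 0% of the 7411 tested genes did.

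The member that passed was Ccdc124, a protein that binds ribosomes (chr8:70868227-70868440, minus strand, 214 bases, 15.3 CPM). Ccdc124 rates in WT were 44.2%, 51.6%, 40.2%, 40.5%, 29.9%, 11.1%, 18.6% and 22.6%. In YBX1-/- they were 22.4%, 24.8%, 22.8%, 18.5%, 6.98%, 2.59%, 0.617% and 0.577%. Every YBX1-/- library was below the WT library of the same time, and the ratio of the YBX1-/- rate to the WT rate was smallest at 18 and 24 h. The decay difference was -0.20 log2 per h (SE 0.0257, adjusted p 0.0462 in limma), a steeper fitted fall in YBX1-/- than in WT. In WT the rate rose after 12 h, from 11.1% to 18.6% at 18 h and 22.6% at 24 h. In YBX1-/- the rate went on falling, from 2.59% at 12 h to 0.617% and 0.577%. The difference thus rests in part on the late rise in WT, and is no measure of faster loss in YBX1-/- alone. Fitted without the later libraries, the difference was -0.10 (up to 12 h) and -0.09 (up to 6 h). The adjusted p was 0.0544 to 0.791 in the 12 alternative settings in which it no longer passed, among them each left-out time point except 12 and 18 h.

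Mvb12a, a subunit of the ESCRT-I sorting complex (chr8:71547825-71548026, plus strand, 202 bases, 6.13 CPM), had a like course. Mvb12a rates in WT were 53.5%, 63%, 50%, 57.1%, 42.6%, 25.8%, 15.4% and 33.3%. In YBX1-/- they were 11.1%, 23.4%, 22.7%, 15.7%, 11.4%, 2.78%, 0% and 0%, lower at all 8 times. Its decay difference was -0.32 (SE 0.0437) and did not pass (adjusted p 0.0531), and over 0 to 6 h alone it was 0.06. The rule for named genes, which asks for a mean rate above the median of tested members, gave B4galnt1 (-0.08, adjusted p 0.188) as the third in this direction.

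Both genes lie on chromosome 8 between 70 and 73 Mb, where late label in WT was common. Of 8 members there, 3 (Mvb12a, Ccdc124 and Mast3, a kinase) had at least 5% at 24 h in WT, and 0 in YBX1-/-. The other 24 intervals of middle length there had 8 in WT and 1 in YBX1-/-. Elsewhere on chromosome 8 the share in WT was 9.62% of 239 intervals, and on the other chromosomes 3.005% of 4393. In YBX1-/- these shares were 0.418% and 1.502%. This stretch was singled out after its values were seen, and what moves with it was not tested. With chromosome 8 left out, and Ccdc124 with it, 217 members were tested and 0 passed the decay difference in limma. Of all 6995 genes tested there, 0.0143% passed.

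Over all chromosomes, 12 members (4.63%) had at least 5% at 24 h in WT and 6 (2.32%) in YBX1-/-, against 3.496% and 1.41% of the other intervals. Lyl1, a transcription factor of blood stem and progenitor cells, also on chromosome 8, had 37.03%, 34.5%, 22%, 15.9%, 7.14%, 4.82%, 1.28% and 26.7% in WT. Its last value stands far above the 1.28% at 18 h, and YBX1-/- had 0.546% at 24 h. Nfix, on the opposite strand, covered 36.2% of that interval. Mpo and Mcpt8, singled out for their scatter, encode a neutrophil enzyme and a basophil protease. Mpo had 59.1%, 33.3%, 57.1%, 25%, 100%, 0%, 46.7% and 18.2% in WT. Mcpt8 had 45.5%, 25%, 16.7%, 38.2%, 32.1%, 50%, 40% and 27.8% there. In YBX1-/- Mpo had 27.5%, 31.2%, 43.1%, 29.5%, 44.6%, 8.68%, 3.26% and 1.31%. WT values of both genes rose and fell between time points. Values such as the 100% and 0% of Mpo can come from few reads, and the reads per library are unknown. It cannot be told from them if label was lost in WT. Both genes count among the 12 members with late label in WT, which is uncertain for the same reason.

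In the other direction the same rule gave Prkcsh, Bola1 and Tmem208, none of which passed. Prkcsh, the β subunit of glucosidase II in the ER, had 39.9%, 46.5%, 38.7%, 24%, 11.7%, 1.41%, 0% and 0% in WT and 32.3%, 23.2%, 27.6%, 25.9%, 8.17%, 3.12%, 1.83% and 0.836% in YBX1-/-. Its decay difference was 0.18 (SE 0.0336, adjusted p 0.107), and 0.32 with a pseudocount of 0.01 and 0.09 with 0.5. Tmem208, an ER protein that takes part in membrane insertion, had 43.5%, 41.5%, 36.2%, 22.4%, 22.1%, 14.9%, 1.99% and 1.13% in WT. In YBX1-/- it had 34.8%, 29.8%, 27.9%, 23.4%, 17.7%, 10.6%, 9.44% and 10.1%, lower than WT at 0 to 1 h, 6 h and 12 h and higher at 3, 18 and 24 h. Its difference was 0.12 (SE 0.0259, adjusted p 0.14), and -0.004 over 0 to 12 h. Bola1, a mitochondrial protein of iron-sulfur cluster assembly, had 0.21 (SE 0.04503, adjusted p 0.126) with 3 WT libraries listed at 0, and 0.38 and 0.11 with these pseudocounts. Without the 12 h time point all 3 passed (limma, adjusted p 0.0393 for Prkcsh, 0.0305 for Bola1 and 0.0205 for Tmem208), as Prkcsh did without 18 h (adjusted p 0.04003). Over all tested genes 2.75% passed without 12 h and 1.23% without 18 h.

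For the level difference upward the rule gave Cd177, a surface protein of neutrophils, at 2.65 log2 (SE 0.646, adjusted p 0.779). Cd177 rates were 22.3%, 15.8%, 25.9%, 10.5%, 13.6%, 0%, 0% and 0% in WT. The YBX1-/- libraries had 20%, 32.9%, 41.5%, 37.1%, 22.5%, 4.39%, 2.68% and 1.57%, the higher value at 7 of 8 times. Hcfc1r1 (0.56, SE 0.213) and Atp13a2 (0.67, SE 0.274) followed. Downward, Mvb12a (-3.08, SE 0.925), Ccdc124 (-1.89, SE 0.589) and the GTPase Drg2 (-1.37, SE 0.5002) were named, each lower at 8 of 8 times. None of these 6 passed (adjusted p 0.779).

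**Figure D5:**
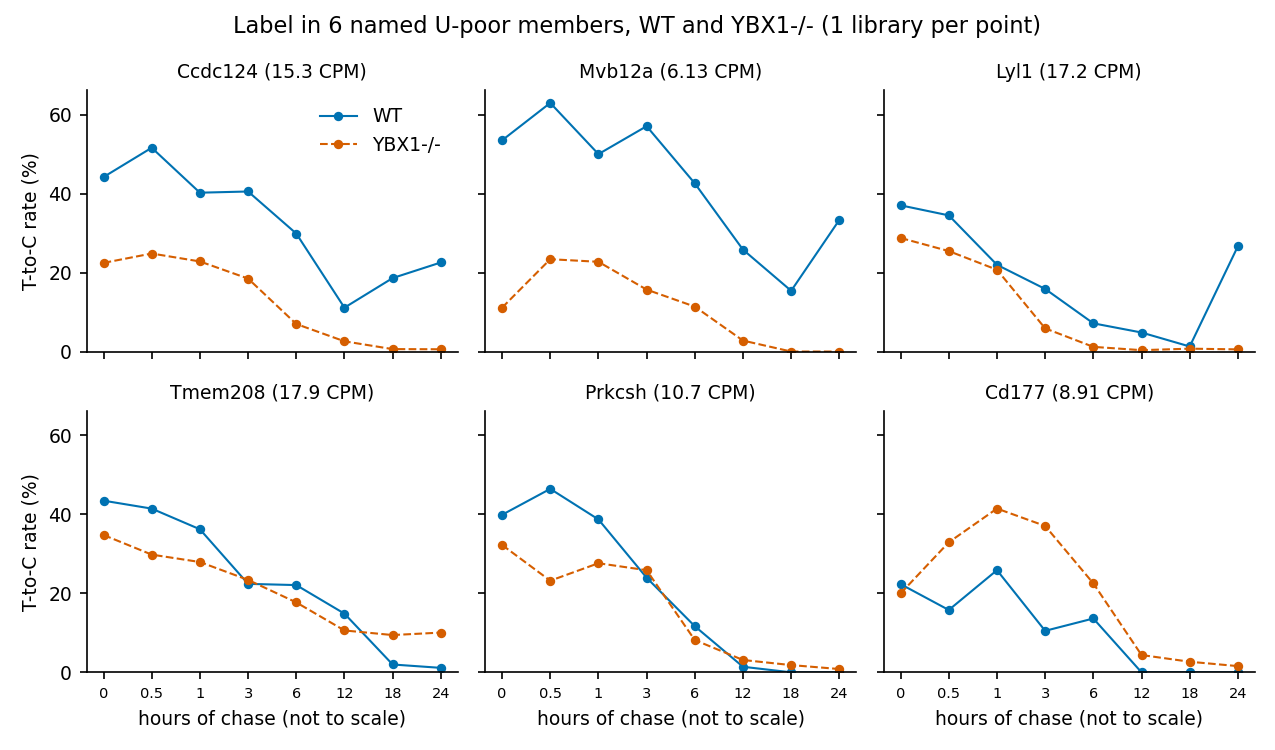
T-to-C rate (y axis, percent) over the chase (x axis, hours, spacing not to scale) in 6 named U-poor members, WT in solid and YBX1-/- in dashed lines, 1 library per point. Ccdc124 and Mvb12a are lower in YBX1-/- at all 8 times and Cd177 is higher at 7 of 8, and only Ccdc124 passed the test of the decay difference.

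By function the members were a mixed group: 39 of 259 were in any of the gene lists, as were 623 of the 4664 intervals of middle length. Proteasome (24 intervals of middle length), V-ATPase (16), RNA polymerase II and Mediator (23), glycolysis (12), histones (11), m6A machinery (12), Bcl2 family (8), Y-box genes (4) and tubulins (3) had no member. Of the mitochondrial ribosomal proteins 5 of 44 were members (Mrpl28, Mrps18a, Mrps34, Mrps11 and Mrpl2), and label fell in all 5 in both genotypes. Mrpl28 rates were 35.5%, 39.6%, 42.9%, 29.03%, 13.8%, 1.85%, 0.699% and 1.21% in WT. Of the lysosomal list 3 of 30 were members: Ctsz, Hexa (β-hexosaminidase) and Galns (a sulfatase). Hexa had half-lives of 4.297 h and 4.48 h, and Galns of 3.49 h and 4.69 h, so this set stayed near the median of the members.

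Of the respiratory chain list 3 of 35 were members. Atp5d, a subunit of ATP synthase, had 34.8%, 38.8%, 40.8%, 26.2%, 18.3%, 6.56%, 1.89% and 1.69% in WT and half-lives of 4.85 h and 4.59 h. Ndufa10, a subunit of complex I, had 5.14 h and 4.45 h, and Ndufaf2, an assembly factor of complex I, had 2.71 h and 4.71 h. Of the actin list 3 of 40 were members: Coro1b, which binds filaments, Tmsb10, which binds monomers, and Tln1, which links integrins to actin. Tmsb10 had half-lives of 5.29 h and 6.52 h, the longest of the 3 in both genotypes. Solute carriers had 4 of 67, with Slc35c2 (2.91 h and 4.08 h) and Slc11a1, the metal transporter of phagosomes (3.695 h and 3.72 h), named by CPM beside Slc26a10. In none of these lists did a member pass the decay difference.

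Of the myeloid transcription factors 3 of 30 were members: Spi1, Lyl1 and Nfkb2, a subunit of NF-κB. Label fell in 1 of the 3 in WT (Spi1) and in 3 of 3 in YBX1-/-, where 95.2% and 91.5% of all tested genes fell. None of the 3 passed the decay difference, so no difference between the genotypes is shown. Lyl1 and Nfkb2 stood at 26.7% and 12.1% in the WT library of 24 h, after 1.28% and 3.57% at 18 h. Spi1 rates were 27.5%, 45.6%, 34%, 8.38%, 6.08%, 4.74%, 0.752% and 0.6803% in WT and 19.8%, 27.6%, 19.3%, 9.97%, 2.21%, 1.39%, 1.07% and 0.344% in YBX1-/-. Among MAP kinase genes 3 of 27 were members, of which Map2k2 (3.15 h and 3.51 h) and Map3k11 (3.36 h and 3.49 h) lost label in both genotypes and Mapk8ip3 did not pass in either. Ybx1 itself was no member, with 34.9% T in its interval of 387 bases.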

How the data were processed

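T-to-C rates were measured by SLAM-seq in 16 libraries and deposited as 1 table, with a fraction from 0 to 1 per interval and library. The authors also deposited, per the file headers, each interval's mean CPM, a coverage signal on its Ts, and a count of its Ts, without depth per library. The submitters' processing notes name CASAVA, HISAT2 2.1.0 and the human build GRCh38, although the samples are mouse; the sources used here name no program for the conversions. Coordinates fit the mouse build GRCm38: the T count on the RNA strand of GENCODE vM21 transcripts equalled the deposited count in 4655 of 4655 intervals of middle length with a transcript sequence. Overlaps and motifs come from that annotation.

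The table held 86993 intervals, and 21148 of 21177 genes matched a symbol. Rates were put in percent and tested as log2(rate + 0.1 percentage points), where the rate was above 0 in at least 12 of 16 libraries, with limma 3.58.1 in R 4.3.3 and a trend. The pseudocount shrinks differences between low rates. Label loss was a straight line over hours within a genotype. The decay difference was the interaction of genotype and hours with time point as a factor, and the level difference the genotype term, both after subtracting the library median. They had 6 and 7 residual degrees of freedom. The p-values measure scatter between time points, with nothing in the labels to show separate cultures. On data simulated from the 7411 tested genes the decay test recovered 33 of 100 genes changed by 0.2 log2 per h and 61 of 100 changed by 0.4, with 9 false calls. The simulated noise was normal and independent for each gene and library, with no scatter shared between genes. These numbers are therefore no error rate for the real libraries.

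Members, lists and tests were chosen with earlier results of these data known. Named were the 12 members with the highest CPM, those past or nearest the threshold of each difference (3 per direction), the 4 steepest and 4 shallowest WT slopes, the 4 lowest T shares, the 3 intervals on each side of the limit, and up to 3 per list with at least 3 members. Others were singled out after their values were seen.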

Additional observations from a re-analysis of the deposited data

Results flagged for a closer look

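The loss of label of Ccdc124 differed between the genotypes by a test of the difference itself: the slope in YBX1-/- minus that in WT was -0.20 log2 per h (limma, adjusted p 0.0462). It no longer passed in 12 alternative settings, among them without the YBX1-/- 0 h library (adjusted p 0.159), and it was -0.10 over 0 to 12 h. The gene lies in the stretch of chromosome 8 where late label in WT was common. Label in YBX1-/- was lower at 8 of 8 times.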

How the results depend on the processing

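The number of members past the decay difference was 1, and 0 with a pseudocount of 0.01 or 0.5, with no filter on zeros, over 0 to 6 h, without the YBX1-/- 0 h library and with the longest interval of each gene. It was also 0 without chromosome 8, a setting added with the values in view that removes Ccdc124 itself. In these settings with 0 members, 0% to 0.0284% of all tested genes passed. The number of members was 2 with no centring (0.837% of members, 0.162% of all tested genes) and 8 over 0 to 12 h (3.35% of members, 3.62% of all tested genes). With each time point left out in turn it was 0 to 11, with 11 without 12 h (4.603% of members, 2.75% of all tested genes) and 4 without 18 h (1.67% and 1.23%). The decay difference of Mvb12a turned to 0.062 over 0 to 6 h, and that of Tmem208 to -0.0042 over 0 to 12 h. The cause was not tested. The members with falling label were 75 (WT) and 74 (YBX1-/-) of 79 with a limit of 20% T, where fewer members were counted. These are 94.9% and 93.7%, against 95.2% and 91.5% of all tested genes. With a rate above 0 in all 16 libraries they were 73 and 77 of 80 (91.25% and 96.25%), against 98.98% and 99.08% of all genes tested there. Over 0 to 6 h they were 184 and 185 of 239 (77.0% and 77.4%), against 83.1% and 84.8% of all tested genes. The mean log2 ratio of median rates was -0.72 with a limit of 20% T and -0.26 from 20 CPM. It turned to 0.12 with rates divided by T share and 0.068 with -ln(1 - rate) divided by T share, by which the members' median rate at 0 to 1 h went from 29.8 to 43.2 and 51.7 on that scale. The level difference stayed at 0 members in each setting run. Time point as a factor already pairs the WT and YBX1-/- libraries of each time, and a replicate block beyond that has no meaning with 1 library per group. Depth per library and the background of unlabelled RNA are unknown, so rates near 0 cannot be set against a floor.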
